A study of Mus musculus with 4 samples.

Results

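The genes described here are Enpep, Fut1, Fut2, Epcam, Ly75, Ackr4, Tbata and Ly6a. They encode or make the surface markers by which thymic epithelial cells are stained and sorted, together with further genes known as marks of the thymic cortex or of epithelial progenitors. They were taken by gene name, 8 of the 54532 genes in the count table, and each name matched 1 row. RNA of sorted thymic epithelial cells from C57BL/6 mice was sequenced in bulk, in 4 libraries: cortical cells gated Ly51+ UEA1- (cTEC) and medullary cells gated Ly51- UEA1+ (mTEC), each from SCD1 knockout mice (KO) and from littermate controls that the labels call WT. SCD1 is the stearoyl-CoA desaturase that introduces the double bond of oleic acid. The labels give no age, sex or number of pooled mice and do not say which part of the gene was deleted. Each group has 1 library, so no difference has a replicate check and no test was possible. The 95% intervals cover counting error only, and every comparison is one of libraries rather than of conditions.

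The thymic cortex and medulla are built by epithelial cells with a common origin. Cortical cells attract progenitors, commit them to the T lineage and present the peptides of positive selection, and medullary cells, many of them through the regulator Aire, display antigens of other tissues. The populations are told apart on a sorter by a peptidase and a sugar. Ly51 is aminopeptidase A, the product of Enpep, which trims an acidic residue from the end of peptides such as angiotensin II. UEA1 is a plant lectin that binds the fucose of the H antigen, and the enzymes FUT1 and FUT2 add that fucose to galactose. EPCAM is a homophilic adhesion protein of epithelia that serves as the general gate for thymic epithelium. Ly75 encodes the endocytic receptor CD205 of cortical epithelium and dendritic cells. Ackr4 encodes a scavenger receptor that takes up the chemokines CCL19, CCL21 and CCL25 without signalling through G proteins. Tbata encodes an intracellular protein of thymic stroma that has been linked to inhibition of the neddylation enzyme UBA3. Ly6a encodes Sca-1, a glycolipid-anchored protein of haematopoietic and epithelial progenitors that lymphocytes and endothelium also carry.

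The targeted gene Scd1 had 278 reads in KO mTEC and 1310 reads in WT mTEC, 4.85-fold lower in the knockout. In cTEC it had 73 reads in KO and 325 reads in WT, 5.08-fold lower in the knockout. The libraries held 15740383 to 18151725 reads assigned to genes, and 16839 to 19654 genes had at least 10 reads. Levels are given in CPM, read counts relative to the effective library size by the trimmed mean of M-values, and in TPM, which also divide by gene length, where genes are compared with each other.

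Sequence upstream of the start of each gene was read from RefSeq (mouse build GRCm38.p6), whose table held 6 of the 8 genes, all but Fut2 and Ly6a. Windows with more than 30 bases in exons of these genes are not printed, which leaves out Fut1 (139 bases) and Ackr4 (all 250). Those of Enpep, Ly75 and Tbata are shown because these 3 genes share the high cortical level described below. Each runs 5′ to 3′ on the gene's own strand over the 250 bases before the start. Enpep lies on chr3:129332750-129332999 (minus strand), Ly75 on chr2:60383274-60383523 (minus strand) and Tbata on chr10:61171714-61171963 (plus strand). Of the printed windows, 30 bases in Ly75 and 10 in Tbata lie in exons of GENCODE M21. Capitals mark GACGC, the core bound by FOXN1, the transcription factor that directs thymic epithelial development.
Enpep: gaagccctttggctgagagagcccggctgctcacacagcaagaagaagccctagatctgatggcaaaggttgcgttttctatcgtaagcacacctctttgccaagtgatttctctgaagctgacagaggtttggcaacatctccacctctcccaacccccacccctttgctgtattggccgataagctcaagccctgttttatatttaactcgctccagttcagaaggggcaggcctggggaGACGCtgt
Ly75: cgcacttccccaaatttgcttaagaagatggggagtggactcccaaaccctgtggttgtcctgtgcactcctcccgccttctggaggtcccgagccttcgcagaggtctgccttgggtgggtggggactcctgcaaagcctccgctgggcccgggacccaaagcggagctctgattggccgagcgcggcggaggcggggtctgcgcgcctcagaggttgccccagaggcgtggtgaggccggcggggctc
Tbata: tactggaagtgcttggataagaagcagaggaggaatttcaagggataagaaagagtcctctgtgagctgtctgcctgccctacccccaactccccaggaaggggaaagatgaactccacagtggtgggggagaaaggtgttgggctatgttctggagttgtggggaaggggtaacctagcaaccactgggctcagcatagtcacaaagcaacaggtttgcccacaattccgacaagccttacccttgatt
GACGC was searched on both strands and occurred in the window of Enpep alone among the 6 genes, 8 bases before the start, against 22.6% of the 32851 RefSeq windows of the same length. TATAAA was found in the windows of Enpep and Ackr4, against 12.4% of all windows. CCAAT was found in those of Enpep and Ly75, against 33.8%. The windows differed in CpG dinucleotides, with 17 in Ly75, 12 in Fut1, 8 in Epcam, 6 in Enpep, 5 in Ackr4 and 1 in Tbata, around a median of 6 over all windows (quartiles 2 and 16). None of the 3 motifs thus occurred in all 3 printed windows, and the presence or absence of letters here says nothing of binding.

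The first comparison set cTEC against mTEC within each genotype, which checks the labels of the sort for Enpep, Fut1 and Fut2 and describes the other members. Because the sort used Ly51 and UEA1, the difference of the first 3 is a check of the labels and not a finding. A gene was counted as different by a size rule of at least 50 reads over the pair of libraries, at least 2-fold, and a counting interval that excludes equality. By this rule Enpep, Ly75, Ackr4 and Tbata were higher in cTEC and Fut1 and Fut2 lower, the same genes in KO and in WT. Among all genes, 8.96% in KO and 8.53% in WT were higher in cTEC, and 19.8% and 19.0% were lower. The members' median log2 ratio was 1.19 in KO and 1.27 in WT, where that of all genes tested was 0.08 and 0.06. The members include the sort genes and known cortical marks, so this contrast follows from their choice and is not a finding either. The libraries are of bulk RNA, in which fewer cells of a type and less RNA per cell cannot be told apart.

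**Figure D1:**
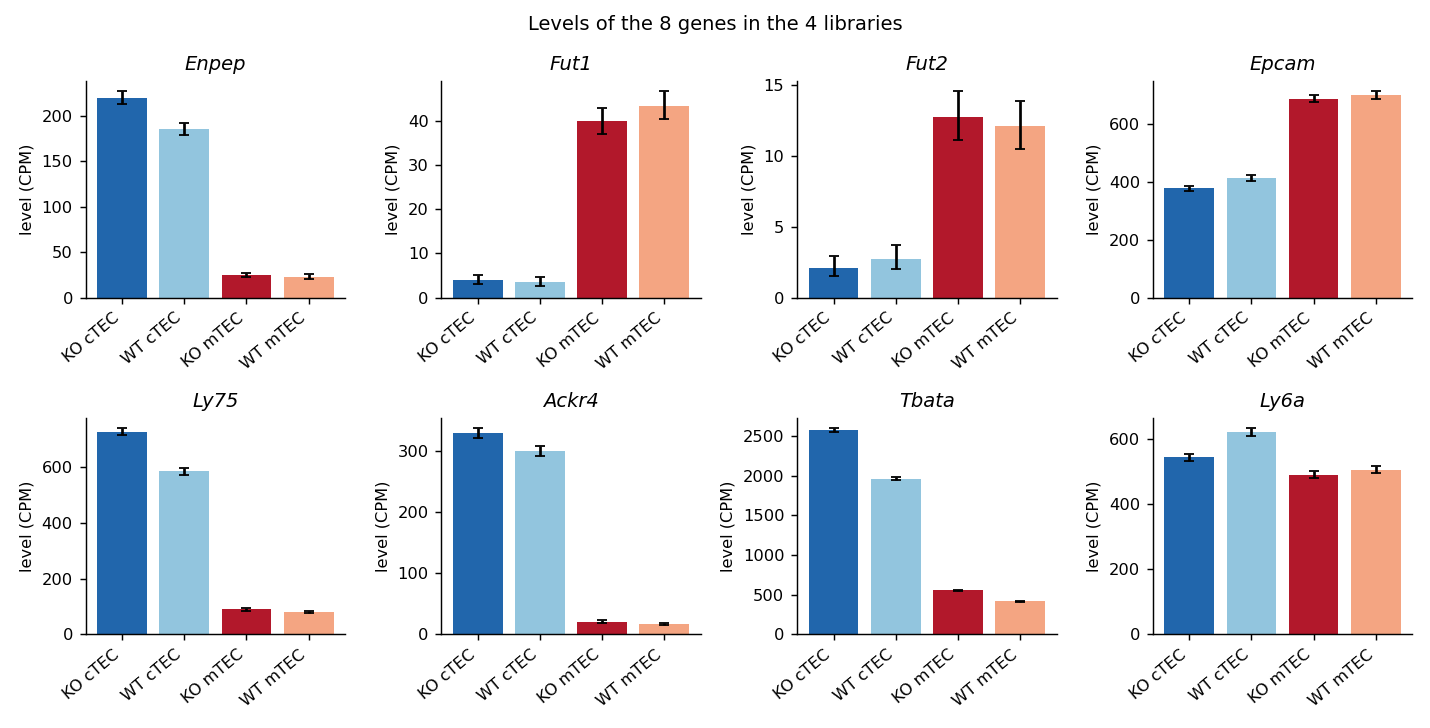
Level of each of the 8 genes in CPM (vertical axes from 0, scaled separately per gene) in the KO cTEC, WT cTEC, KO mTEC and WT mTEC libraries. Bars are single libraries and whiskers exact 95% Poisson intervals. Enpep, Ly75, Ackr4 and Tbata stood higher in both cTEC libraries, Fut1, Fut2 and Epcam in both mTEC libraries, and Ly6a lay between 490 and 620 CPM in all 4.

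Enpep (ENSMUSG00000028024, mm10 chromosome 3, 129269175 to 129332720, minus strand) matched the Ly51 gate. It had 3852 reads in KO cTEC and 2830 reads in WT cTEC, against 427 reads in KO mTEC and 391 reads in WT mTEC. These are 220 and 185 CPM in the cTEC libraries and 24.3 and 22.9 CPM in the mTEC libraries. The order was KO cTEC, WT cTEC, then both mTEC libraries, whose intervals overlapped. The ratio of cTEC to mTEC was 9.03-fold in KO (log2 3.18, 3.03 to 3.32) and 8.06-fold in WT (log2 3.01, 2.86 to 3.17). The Ly51- libraries therefore still held Enpep RNA, at 11.1% of the cTEC level in KO and 12.4% in WT.

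Enpep belongs to a group of cell-surface peptidases and angiotensin genes, of which 16 were listed and 11 had enough reads over each population pair. Enpep, the gene of the Ly51 gate, was the one higher in cTEC by the size rule in either genotype. This 1 of 11 is near the share of all genes that were higher in cTEC, 8.96% in KO and 8.53% in WT. Ren1 (renin, which starts the angiotensin cascade) had 3 reads in KO cTEC and 84 reads in KO mTEC, and 4 reads in WT cTEC and 76 reads in WT mTEC. Agt (angiotensinogen) was lower in cTEC at log2 -2.92 in KO and -2.09 in WT. Ace, the angiotensin-converting enzyme, was at -1.75 in KO and at -0.77 in WT, under 2-fold. Agtr2, an angiotensin II receptor, had 0 reads in both cTEC libraries, a count that allows up to 3, and 41 reads in each mTEC library. Anpep (aminopeptidase N) and Lnpep (the insulin-regulated aminopeptidase) did not pass the rule in either genotype, with Anpep at -0.17 in KO and -0.19 in WT.

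Fut1 and Fut2 ran the other way, as the UEA1 gate requires of its glycan. Fut1 (ENSMUSG00000008461, chromosome 7, 45617289 to 45621059, plus strand) had 70 reads in KO cTEC and 54 reads in WT cTEC, against 701 reads in KO mTEC and 741 reads in WT mTEC. Its level in cTEC was 9.93-fold lower in KO (log2 -3.31, -3.70 to -2.96) and 12.2-fold lower in WT (-3.61, -4.05 to -3.22). The intervals of the KO and WT levels overlapped in each population. Fut2 (ENSMUSG00000055978, chromosome 7, 45648591 to 45666394, minus strand) had 37 reads in KO cTEC and 42 reads in WT cTEC, against 224 reads in KO mTEC and 206 reads in WT mTEC. It was 5.97-fold lower in cTEC in KO (log2 -2.58, -3.14 to -2.09) and 4.36-fold lower in WT (-2.12, -2.65 to -1.65). Per length, Fut1 was the more abundant of the pair in every library, at 39.8 TPM beside 6.52 TPM for Fut2 in KO mTEC and 44.5 beside 6.35 TPM in WT mTEC.

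Sec1, the neighbouring gene of the same enzyme family, followed the pair. It had 11 reads in KO cTEC and 17 reads in WT cTEC, against 193 reads in KO mTEC and 168 reads in WT mTEC. Sec1 and Fut2 share 5.47% of the 50-base windows of the longest Fut2 transcript, so a small part of their reads may be assigned to either. Of 17 fucosylation genes tested, Fut1, Fut2 and Sec1 passed the size rule as lower in cTEC in both genotypes and none as higher in KO. The 3 of 17 are near the share of all genes that were lower in cTEC, 19.8% in KO and 19.0% in WT. Fut8, which fucosylates the core of N-glycans, was at log2 -0.93 in KO, and at -1.03 when libraries were scaled by total reads. In WT, Fut4, which adds fucose to another position, was also lower (log2 -1.05, and -0.58 in KO). Fpgt, of the fucose salvage route, was higher in WT at 1.03 and at 0.93 when libraries were scaled by total reads, which is under 2-fold. Of the other genes that supply GDP-fucose, Gmds and Tsta3 of its synthesis, Fuk of its salvage and Slc35c1, its carrier into the Golgi, were within 2-fold in both genotypes. For Tsta3, the most abundant of these, the levels were 33.4 TPM in KO cTEC and 32.2 TPM in WT cTEC, against 30.4 TPM in KO mTEC and 31.2 TPM in WT mTEC.

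Epcam (ENSMUSG00000045394, chromosome 17, 87635979 to 87651106, plus strand) had 379 CPM in KO cTEC and 413 CPM in WT cTEC, against 689 CPM in KO mTEC and 702 CPM in WT mTEC. The ratio of cTEC to mTEC was log2 -0.86 in KO (-0.91 to -0.82) and -0.77 in WT (-0.81 to -0.72), below the 2-fold of the size rule. The epithelial list held genes on both sides. Of its 12 genes, Cldn7, a tight junction claudin known to bind EPCAM, passed the rule as lower in cTEC at -2.24 in KO and -2.19 in WT. Krt18, a keratin of simple epithelia, was higher at 1.05 in KO and 1.08 in WT, and was under 2-fold with scaling by total reads, at 0.96 in KO and 0.99 in WT. The list's median was -0.26 in KO and -0.18 in WT.

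Ly75 (ENSMUSG00000026980, chromosome 2, 60292103 to 60383303, minus strand) had 12782 reads in KO cTEC and 8967 reads in WT cTEC, against 1575 reads in KO mTEC and 1372 reads in WT mTEC. In CPM these are 729 and 587 in the cTEC libraries and 89.6 and 80.5 in the mTEC libraries, all 4 with separate intervals. It was 8.13-fold higher in cTEC in KO (log2 3.02, 2.95 to 3.10) and 7.29-fold higher in WT (2.86, 2.78 to 2.95). Within the mannose receptor family, 5 of 5 genes were tested, and the macrophage receptor Mrc1 went the other way, at log2 -2.41 in KO and -2.50 in WT. Mrc2, Pla2r1 and Cd302 stayed within 2-fold in both genotypes. An antisense gene, Gm13571, shares 249 of the 6905 exon bases of Ly75 and had 10 to 14 reads per library. Ly75 is also known from dendritic cells, and the summed level of 12 myeloid and dendritic marker genes was 126 CPM in KO cTEC and 104 CPM in WT cTEC, against 381 CPM in KO mTEC and 341 CPM in WT mTEC. Both sums were lower in cTEC than in mTEC. Lyz2 alone made up 256 CPM of the sum in KO mTEC and 223 CPM in WT mTEC, so the mTEC sums rest largely on 1 gene. Cd68 was the 1 tested gene of the list with a higher level in cTEC, at log2 0.65 in KO and 0.75 in WT. The part of dendritic cell RNA in the level of Ly75 was not tested.

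Ackr4 (ENSMUSG00000079355, chromosome 9, 104084157 to 104126933, minus strand) had the widest population difference of the 8. It had 5761 reads in KO cTEC and 4575 reads in WT cTEC, against 360 reads in KO mTEC and 275 reads in WT mTEC. It was 16.02-fold higher in cTEC in KO (log2 interval 3.85 to 4.16) and 18.5-fold higher in WT (4.21, 4.04 to 4.39). Only 9 of 15962 genes tested in KO and 10 of 15747 in WT had a larger ratio. The gene lies within the span of Acad11, an acyl-CoA dehydrogenase gene on the opposite strand, and the exons of the 2 genes share 479 of the 5380 bases in Ackr4 exons. Acad11 had 1479 reads in KO cTEC and 1292 reads in WT cTEC, against 592 reads in KO mTEC and 568 reads in WT mTEC. The sources used here do not say whether reads were counted by strand, so reads of the shared bases could belong to either gene.

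Among the other atypical chemokine receptors, Ackr1 and Ackr2 were on the opposite side. Ackr1, which binds many inflammatory chemokines, had 1 read in KO cTEC and 5 reads in WT cTEC, against 53 reads in KO mTEC and 51 reads in WT mTEC. Ackr2, a scavenger of CC chemokines, had 6 reads in KO cTEC and 3 reads in WT cTEC, against 75 reads in KO mTEC and 78 reads in WT mTEC. Both passed the size rule as lower in cTEC in each genotype. Of the listed chemokine receptors and ligands, 3 of 11 tested in KO and 5 of 12 in WT were lower. Among all genes 19.8% and 19.0% were. In the other direction, 3 of 11 in KO and 4 of 12 in WT were higher, against 8.96% and 8.53% of all genes. Ackr3, which takes up CXCL12, was at log2 0.69 in KO and 1.03 in WT, and at 0.94 in WT when scaled by total reads. Of the ligands of ACKR4, Ccl25 was 5.78-fold higher in cTEC in KO and 6.41-fold higher in WT. Ccl21a was at log2 -0.02 in KO and -0.80 in WT. Ccl19 had 1 read in each cTEC library, against 10 reads in KO mTEC and 264 reads in WT mTEC. Ccl19 and Ccl21a have near-identical copies in the mouse genome, between which reads can be split.

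Tbata (ENSMUSG00000020096, chromosome 10, 61171954 to 61188841, plus strand) was the most abundant of the 8 in cTEC. It had 45228 reads in KO cTEC and 30021 reads in WT cTEC, against 9706 reads in KO mTEC and 7086 reads in WT mTEC. Per length it stood at 3005 TPM in KO cTEC and 2317 TPM in WT cTEC, against 633 TPM in KO mTEC and 489 TPM in WT mTEC. That placed it 30th and 50th among protein-coding genes in the cTEC libraries and 180th and 230th in the mTEC libraries. The ratio of cTEC to mTEC was 4.67-fold in KO (log2 2.22, 2.19 to 2.26) and 4.72-fold in WT (2.24, 2.20 to 2.28). None of the 7 neddylation enzyme genes listed for its reported partner UBA3 passed the size rule, and Uba3 itself was at log2 0.48 in KO and 0.30 in WT.

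Ly6a (ENSMUSG00000075602, chromosome 15, 74994877 to 74998031, minus strand) was abundant in all 4 libraries and followed neither population. It had 544 CPM in KO cTEC and 620 CPM in WT cTEC, against 490 CPM in KO mTEC and 505 CPM in WT mTEC. Its log2 ratio of cTEC to mTEC was 0.15 in KO (0.11 to 0.19) and 0.30 in WT (0.25 to 0.34). In its transcript, 10.04% of 50-base windows are shared with Ly6c1, Ly6i, Ly6c2 or I830127L07Rik, so its count may include some of their reads. Of 10 Ly6 family genes tested, Ly6d, Ly6g, Ly6h, Ly6i and Ly6c2 were lower in cTEC in both genotypes. Among all genes, 19.8% in KO and 19.0% in WT were lower by the size rule. Ly6d, a mark of squamous epithelium, stood at 159 TPM in KO cTEC and 158 TPM in WT cTEC, against 435 TPM in KO mTEC and 392 TPM in WT mTEC. Ly6g, a neutrophil antigen in its usual setting, had 2 reads in KO cTEC and 4 reads in WT cTEC, against 302 reads in KO mTEC and 281 reads in WT mTEC. Ly6k was higher in KO cTEC at log2 1.24 and at 0.97 in WT, under 2-fold. Ly6e, the most abundant of the family per length, was within 2-fold at 0.75 in KO and 0.80 in WT. Ly6a was thus, with Ly6e, among the family members at a high level in both populations.

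**Figure D2:**
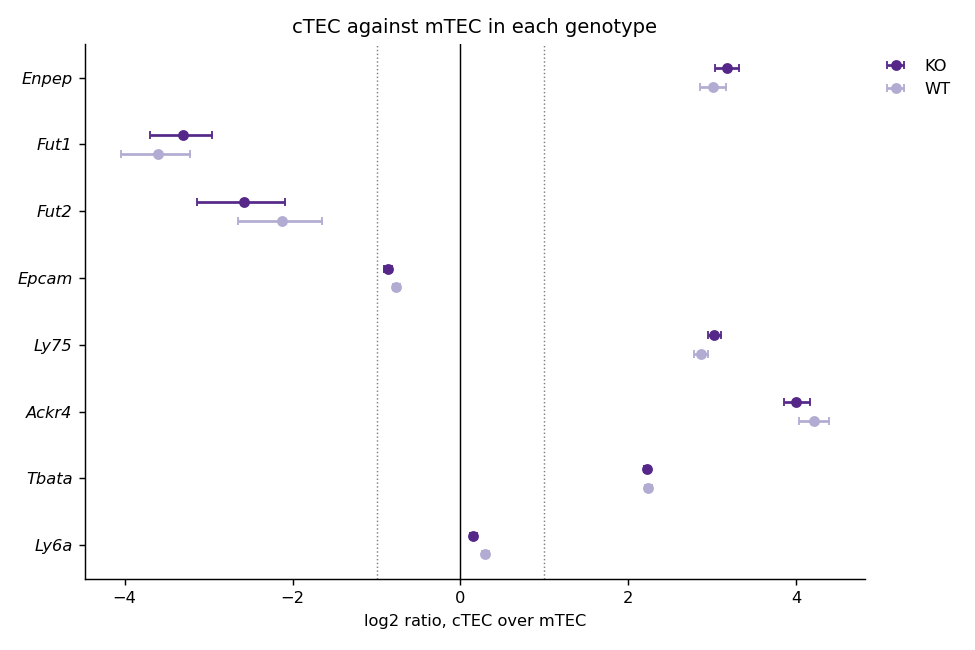
Log2 ratio of cTEC to mTEC for each gene, KO above WT, with exact 95% counting intervals as whiskers. Dotted lines mark 2-fold. Ackr4 lay farthest right, at 4.21 in WT, and Fut1 farthest left, at -3.31 in KO and -3.61 in WT, while Epcam and Ly6a lay inside the dotted lines.

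Per length, the 8 genes kept the same order in both genotypes. In the cTEC libraries it was Tbata, Ly6a, Epcam, Ly75, Ackr4, Enpep, Fut1 and Fut2, with Enpep at 132 TPM in KO and 113 TPM in WT. In the mTEC libraries it was Ly6a, Epcam, Tbata, Fut1, Ly75, Enpep, Ackr4 and Fut2, with Ackr4 at 10.6 TPM in KO and 8.56 TPM in WT. Tbata, Ly75 and Ackr4 ranked higher in the cTEC order and Ly6a, Epcam and Fut1 in the mTEC order, and Fut2 was lowest in all 4.

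The mTEC libraries kept some RNA of every cortical gene, but not in one proportion. The level in mTEC as a share of that in cTEC was 6.24% for Ackr4, 11.1% for Enpep, 12.3% for Ly75 and 21.4% for Tbata in KO. In WT the shares were 5.40% for Ackr4, 12.4% for Enpep, 13.7% for Ly75 and 21.2% for Tbata. Tbata's share was thus more than 3 times that of Ackr4 in each genotype. The other cortical markers spread over the same range and beyond. Prss16, a thymus-specific serine protease, stood at 7.17% in KO and 6.44% in WT, and Psmb11, the cortical proteasome subunit, at 8.39% and 7.49%. Il7, the cytokine of early thymocytes, stood at 68.2% in KO and 72.5% in WT. In the other direction, the cTEC libraries held Fut1 at 10.1% of its mTEC level in KO and 8.20% in WT, and Fut2 at 16.7% and 22.9%. Aire, the defining gene of mature medullary cells, was 37.5-fold lower in cTEC in KO and 33.7-fold lower in WT.

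**Figure D3:**
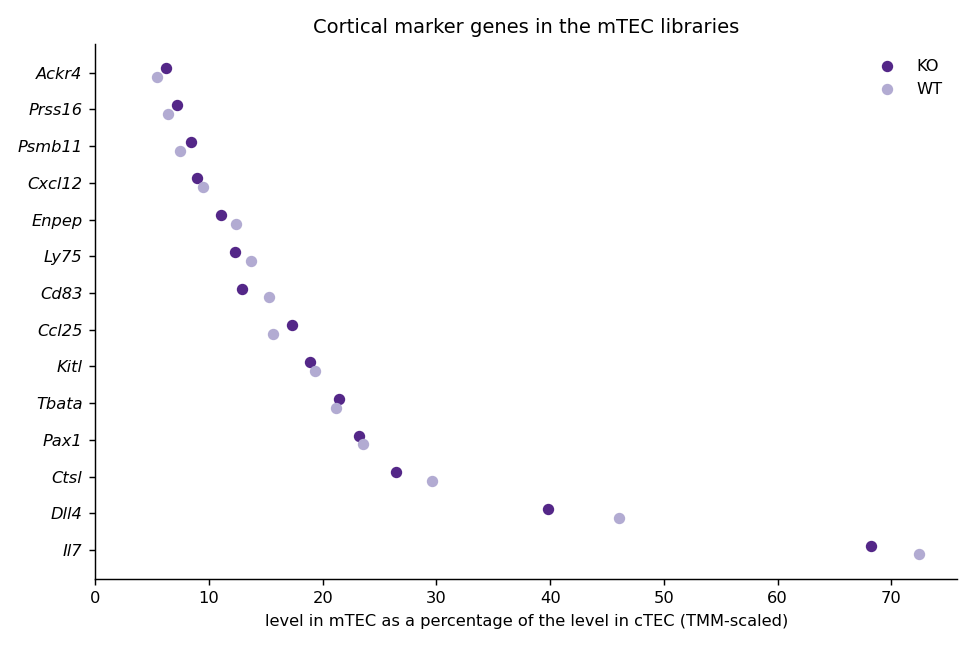
Level of each of the 14 cortical marker genes in mTEC as a percentage of its level in cTEC (horizontal axis), 1 point per genotype, after scaling of the libraries. Values run from 5.40% for Ackr4 in WT to 72.5% for Il7 in WT, with Enpep, Ly75 and Tbata between them.

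The second comparison asked whether the same genes differed without SCD1, in each population. None of the 8 passed the size rule in mTEC or in cTEC, where 0.935% and 1.20% of all genes did. At sizes below 2-fold, the 4 cortical genes were higher in KO than in WT in both populations, and Epcam and Ly6a were lower. By the counting interval alone, 3 members were higher and 1 lower in KO mTEC, and 4 higher and 2 lower in KO cTEC. The 1 lower in KO mTEC was Ly6a, whose interval held 0 when libraries were scaled by DESeq2 size factors (-0.08 to 0.004). A counting interval takes no account of variation between mice. It lay above equality for 11.6% of all genes in mTEC and 16.3% in cTEC, and below it for 10.2% and 14.5%. The members' median log2 ratio was 0.08 in mTEC and 0.15 in cTEC, where that of all genes was 0.01 in both.

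Tbata had the largest ratio of the 8 in both populations. In mTEC it stood at 552 CPM in KO and 416 CPM in WT (log2 0.41, 0.37 to 0.45). In cTEC it stood at 2580 CPM in KO and 1964 CPM in WT (0.39, 0.37 to 0.41). That is 1.33-fold and 1.31-fold, with 957 of 16466 genes in mTEC and 909 of 14445 in cTEC at a higher ratio. Ackr4 was at 20.5 CPM in KO and 16.1 CPM in WT in mTEC (0.34, 0.11 to 0.58), and at 329 CPM in KO and 299 CPM in WT in cTEC (0.13, 0.08 to 0.19). Ly75 was at 0.16 in mTEC (0.05 to 0.26) and at 0.31 in cTEC (0.27 to 0.35). Enpep was at 0.08 in mTEC, an interval that holds 0 (-0.12 to 0.28), and at 0.25 in cTEC (0.18 to 0.32). These 4 genes were thus on the same side of equality in all 8 ratios, at 1.06-fold to 1.33-fold.

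Other cortical genes lay on the same side. Of the 10 cortical markers that are not members, 9 had a log2 ratio above 0 in mTEC (median 0.19) and 9 in cTEC (median 0.28), and none passed the size rule. Of all genes tested, 51.9% in mTEC and 52.3% in cTEC had a ratio above 0. The list was chosen with earlier results of these data known. Its genes were read from the same 1 library per group, so they are not replicates and the counts only describe these libraries. Among the cortical markers, Prss16 was at 0.49 in mTEC and 0.33 in cTEC, Psmb11 at 0.50 and 0.33, and Il7 at -0.09 and -0.01. Of 12 thymocyte markers tested, 11 had a ratio above 0 in mTEC and 12 in cTEC. The summed level of all 14 listed was 286 CPM in KO mTEC and 235 CPM in WT mTEC, and 427 CPM in KO cTEC and 329 CPM in WT cTEC, with median log2 ratios of 0.28 in mTEC and 0.38 in cTEC. No thymocyte marker was at 0 in any library, and none of those tested passed the rule. The part of thymocyte RNA in the ratios of the cortical genes was not tested.

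The enzymes of the UEA1 glycan did not differ between genotypes beyond their counting error. Fut1 was at log2 -0.12 in mTEC (-0.28 to 0.03) and 0.17 in cTEC (-0.36 to 0.72). Fut2 was at 0.08 in mTEC (-0.20 to 0.36) and -0.38 in cTEC (-1.06 to 0.29). The cTEC ratios rest on 37 to 70 reads per library, and the interval of Fut2 there reaches past 2-fold lower. Of the other fucosylation genes, none passed the rule in either population, of 18 tested in mTEC and 16 in cTEC with Fut1 and Fut2 included. By the counting interval alone, 2 of the 16 were lower in KO cTEC and none higher, where 14.5% of all genes were lower. The lowest ratio in cTEC was log2 -0.99, just short of 2-fold. Sec1 was at 0.16 in mTEC (-0.15 to 0.46).

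Epcam was at 689 CPM in KO mTEC and 702 CPM in WT mTEC (log2 -0.03, -0.06 to 0.01), and at 379 CPM in KO cTEC and 413 CPM in WT cTEC (-0.13, -0.18 to -0.08). The epithelial list had medians of 0.01 in mTEC and -0.06 in cTEC, and none of its 12 genes passed the rule. Ly6a was at log2 -0.04 in mTEC (-0.09 to -0.0015) and at -0.19 in cTEC (-0.23 to -0.15). Endothelial cells also express Ly6a, and the 10 endothelial markers summed to 52.1 CPM in KO mTEC and 41.1 CPM in WT mTEC, and to 39.9 CPM in KO cTEC and 26.2 CPM in WT cTEC. Only 7 of the 10 had enough reads for the size rule in mTEC and 5 in cTEC. Cldn5, an endothelial claudin, was higher by the rule in KO mTEC (53 reads in KO and 10 reads in WT). Cdh5, the endothelial cadherin, was higher in KO cTEC (53 reads in KO and 17 reads in WT). Among all genes, 0.935% in mTEC and 1.20% in cTEC passed the rule in either direction. None of the 10 endothelial markers was at 0 in any library, and the part of endothelial RNA in the level of Ly6a was not tested.

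**Figure D4:**
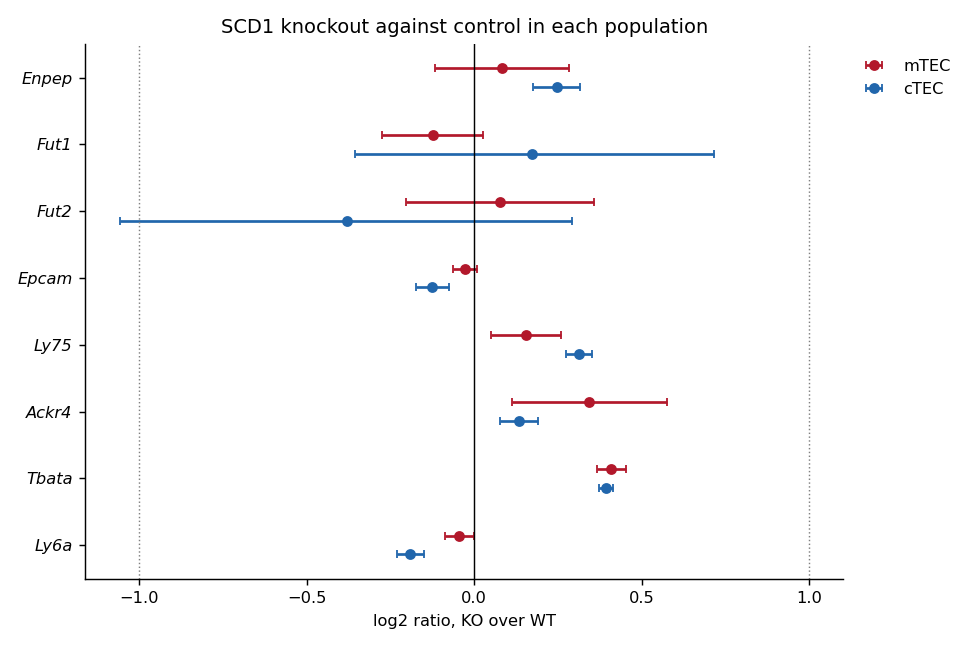
Log2 ratio of KO to WT for each gene in mTEC (upper point) and cTEC (lower point), with exact 95% counting intervals as whiskers. Dotted lines mark 2-fold. All points lie inside them, from -0.38 for Fut2 in cTEC to 0.41 for Tbata in mTEC, and Enpep, Ly75, Ackr4 and Tbata lie right of 0 in both populations.

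The genotype ratio differed between populations beyond counting error for 3 of the 8 genes, all by small amounts. The share of all genes that do so was not computed, so the count does not set these genes apart. The difference of log2 ratios, mTEC minus cTEC, was 0.10 for Epcam (0.04 to 0.16), 0.15 for Ly6a (0.09 to 0.21) and -0.16 for Ly75 (-0.27 to -0.05). For Tbata it was 0.02 (-0.03 to 0.07), the narrowest interval of the 8, and for Fut2 it was 0.45 (-0.23 to 1.14), the widest. The intervals of Enpep, Fut1 and Ackr4 also held 0.

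**Figure D5:**
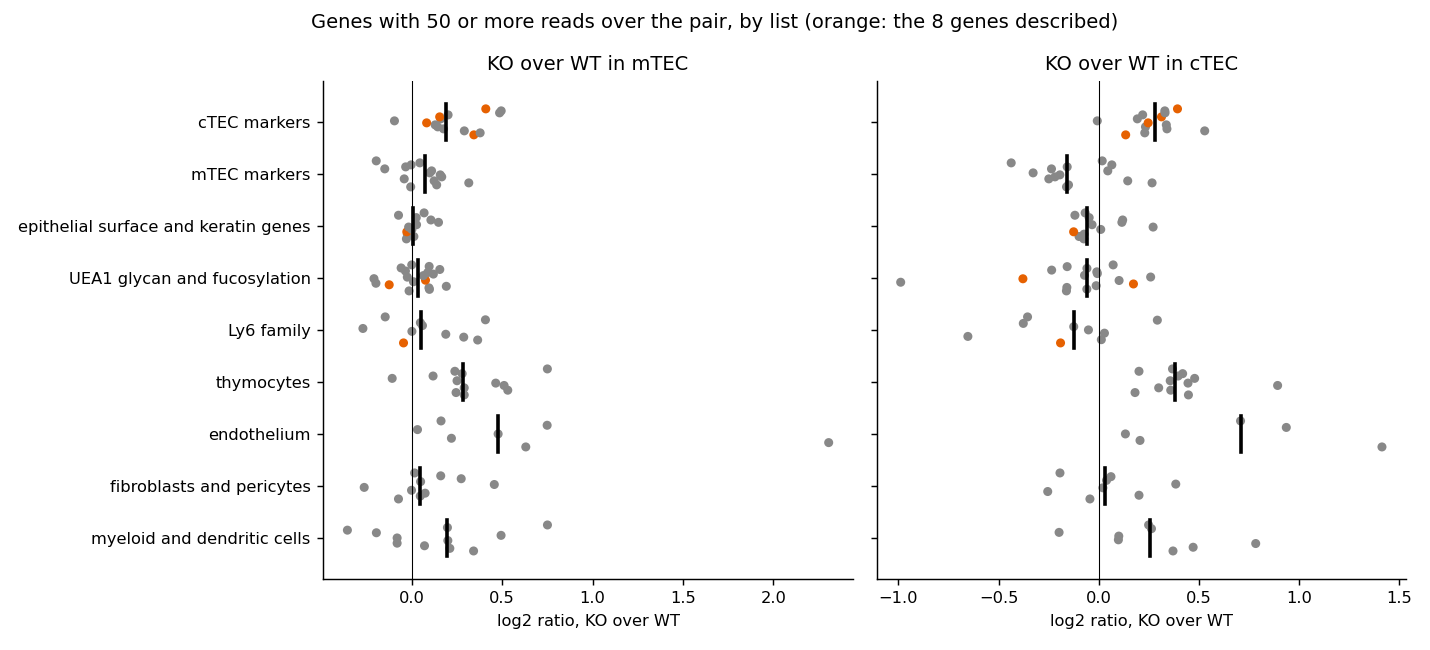
Log2 ratio of KO to WT in mTEC (left) and cTEC (right) for the genes of 9 lists with 50 or more reads over the pair, 1 point per gene, vertical bars for list medians, orange for the 8 genes described. Cortical markers had medians of 0.19 and 0.28, thymocyte markers 0.28 and 0.38 and endothelial markers 0.48 and 0.71, while the epithelial list lay at 0.01 and -0.06. The endothelial medians rest on 7 genes in mTEC and 5 in cTEC.

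The genes most like each member were found over all 4 libraries as the smallest distance between log2 levels, each centred on its own mean. The search covered 12783 protein-coding genes with at least 200 reads over the 4 libraries. Predicted genes with Gm or Rik names were left out. The nearest to Enpep was Nefm, a neurofilament gene, at a distance of 0.06 log2 units, followed by Tmem212 and Ly75. Nefm stood at 120 CPM in KO cTEC and 102 CPM in WT cTEC, against 12.8 CPM in KO mTEC and 12.7 CPM in WT mTEC. Nearest to Ly75 was the amino acid transporter gene Slc36a1 at 0.10, and to Tbata Pkhd1l1 at 0.08. Nearest to Ackr4 were Snhg11 at 0.13 and Prss16 at 0.28. Fut1 was nearest to Adamts13 at 0.04 and Fut2 to Nfatc2 at 0.04, both high in mTEC. Nearest to Epcam was Ankrd13b at 0.02, and to Ly6a the sialyltransferase gene St3gal3 at 0.01. Among the members themselves, Enpep and Ly75 were the closest pair at 0.16, whereas Fut1 and Fut2 stood 1.18 apart. Each such likeness rests on 4 values.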

How the data were processed

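The table covered bulk RNA of 4 libraries, 1 per group. The values the authors deposited are raw counts for 54532 genes. The submitters' processing notes name featureCounts 1.5.0-p3, HISAT2 2.0.5, CASAVA and the build mm10. The sources used here give no annotation release, strand setting or treatment of multi-mapped reads, which bear on Fut2, Ly75, Ackr4 and Ly6a, which share sequence with other genes. Gene length, a measure of other kind per the file headers, was deposited in the same table and used for TPM. Each library held 15740383 to 18151725 counts.

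Counts were scaled by TMM in edgeR 4.0.16 (R 4.3.3), with factors of 0.966 to 1.03. Log2 ratios used a prior count of 0.5 reads and exact conditional binomial (Clopper-Pearson) 95% intervals, and CPM exact Poisson intervals (scipy 1.17.1). The interval for a difference of ratios used the delta method. Reads are not independent molecules, so intervals cover counting error only. Steps were tested on simulated data. Shared 50-base windows and exon overlaps came from GENCODE M21 (GRCm38), upstream windows from RefSeq.

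The 8 genes and the 14 gene lists were chosen with earlier results of these data known. From the lists, the genes named are those past the size rule and up to 4 of the largest ratio or highest TPM. Others (Ace, Agtr2, Anpep, Ccl19, Ccl21a, Ccl25, Uba3) were named for their role, and of these Ace, Ccl19 and Ccl25 also passed the size rule in some comparison. A single list member that the rule selects is left out of the text. Alternatives were scaling by DESeq2 1.42.0 size factors or total reads, a prior count of 2, a minimum of 10 or 200 reads and a 1.5-fold threshold.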

Additional observations from a re-analysis of the deposited data

How the results depend on the processing

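Of 96 member ratios recomputed under another scaling or prior count, 88 stayed within their counting interval and none changed sign. The other 8 moved under scaling by total reads, which lowers the ratio of cTEC to mTEC by 0.09 for every gene. In KO this gave -0.96 for Epcam, 2.93 for Ly75, 2.13 for Tbata and 0.06 for Ly6a, and in WT -0.86, 2.77, 2.15 and 0.20. The counts of members past the size rule stayed within 1.5 times under every alternative, and Epcam joined those lower in cTEC at 1.5-fold. The counts over all genes were recomputed after the data had been seen. With a minimum of 10 reads, 404 genes were higher and 366 lower in KO mTEC, 370 higher and 474 lower in KO cTEC, and 5421 in KO and 5145 in WT were lower in cTEC than in mTEC. With a minimum of 200 reads these were 10, 9, 7, 13, 1508 and 1416. At 1.5-fold, 351 were higher and 243 lower in KO mTEC, 310 higher and 365 lower in KO cTEC, and 3155 in KO and 3011 in WT were higher in cTEC than in mTEC. By the size rule as used, 83 were higher and 71 lower in KO mTEC, 71 higher and 102 lower in KO cTEC, 1430 and 1343 higher and 3162 and 2990 lower in cTEC. Calls on the higher side in cTEC made up 44.1% of all in KO and 43.9% in WT at 1.5-fold, against 31.1% and 31.0% by the rule as used. Leaving out a library was not possible with 1 per group. No paired analysis was possible because no group has a second library. In cTEC, Fut1 and Fut2 rest on 37 to 70 reads, which limits what their genotype ratios can show.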

Other observations

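The epithelial progenitor list holds Ly6a. Of 12 genes tested, Cldn3, Cldn4 and Ly6d were lower in cTEC by the size rule in both genotypes, and Fut4 in WT, where 19.8% of all genes in KO and 19.0% in WT were lower. Cldn4, a claudin used to mark medullary progenitors, stood at 131 TPM in KO cTEC and 152 TPM in WT cTEC, against 531 TPM in KO mTEC and 489 TPM in WT mTEC. None of the 12 passed the rule between genotypes. Of 14 mTEC markers, 11 were lower in cTEC in each genotype, and none passed the rule between genotypes. Their median log2 ratio of KO to WT was 0.07 in mTEC and -0.16 in cTEC. Trp63, a regulator of stratified epithelium listed with the medullary markers, was higher in cTEC, at 1.21 in KO and just under 2-fold at 0.995 in WT.

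In the list of atypical chemokine receptors, ligands and receptors, 1 of 12 genes tested in mTEC passed the size rule between genotypes. In cTEC none of the 9 tested passed. Among all genes, 0.935% in mTEC and 1.20% in cTEC passed it in either direction. The 1 gene was Ccl19, with 10 reads in KO mTEC and 264 reads in WT mTEC. Ccl19 and Ccl21a have near-identical copies between which reads can be split, and the part of this in their ratios was not tested. Ccr9, the receptor of CCL25, had 412 reads in KO mTEC and 345 reads in WT mTEC, and 667 reads in KO cTEC and 443 reads in WT cTEC. Ccl21a had 3447 reads in KO cTEC and 1843 reads in WT cTEC (log2 0.71, 0.62 to 0.79), and 3504 reads in KO mTEC and 3577 reads in WT mTEC. Fibroblast and pericyte markers summed to 531 CPM in KO mTEC and 522 CPM in WT mTEC, and to 439 CPM in KO cTEC and 449 CPM in WT cTEC, with median log2 ratios of 0.05 and 0.03.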
